A study of Macaca mulatta with 33 samples.

Results

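Interferon-stimulated genes are the genes that cells switch on when interferon, an antiviral messenger protein, reaches them. A list of 45 such genes was looked up by gene name in a table of liver RNA levels from young macaques. Of these, 42 were found, out of 34882 genes in the table. IFITM3, IFIH1 and USP18 had no row under these names and were not analysed here. SAMD9 had a mean level too low for testing, so 41 genes entered the tests, out of 12497 tested genes in all.

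The animals were 3-year-old juvenile macaques, and 1 liver library was made from each of 33. The organism field gives Macaca mulatta, the rhesus macaque, whereas the design text speaks of Japanese macaques. Each group is named by the mother's diet and then by the diet after weaning, with CD for a control diet and WSD for a western-style diet. The mothers received their diet during gestation and lactation. CD/CD (n = 10) had the control diet throughout. WSD/CD (n = 10) had maternal WSD and postweaning CD, CD/WSD (n = 6) had maternal CD and postweaning WSD, and WSD/WSD (n = 7) had WSD in both periods. No agent, genotype or infection is named for any group. Sex, relatedness and housing were not used here. The CD/WSD and WSD/WSD animals together are called western-fed below.

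Type I and type III interferons bind receptors at the cell surface, which signal through Janus kinases to transcription factors that include STAT2 and IRF9. These enter the nucleus as a complex and turn on the interferon-stimulated genes. Their products sense viral nucleic acid, block translation, degrade RNA, hold virus particles at the membrane or tag proteins with the ubiquitin-like ISG15. In liver, hepatocytes, Kupffer cells (the resident macrophages) and sinusoidal endothelial cells can all respond, and a low level of these genes is normally present without infection.

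Values are FPKM, fragments scaled to the length of the transcript and to the size of the library, so levels can be compared between genes per unit of length. Depth per library is not given by such values. In a liver piece, fewer cells of one type and less RNA per cell cannot be told apart. Hepatocyte markers summed to 6848 to 37718 FPKM per library. The mitochondrial genome gave 1.33% to 4.41% of summed FPKM in the CD/CD, CD/WSD and WSD/WSD libraries, whereas 6 WSD/CD livers exceeded that range. Their shares were 16.08% (replicate 9), 15.78% (6), 11.5% (7), 7.58% (10), 6.94% (2) and 5.06% (3). Replicates 6, 7, 9 and 10 of WSD/CD also stood lowest for hepatocyte markers, with a median deviation from the CD/CD mean of -1.92 to -1.02 on the log2 scale. Animal numbers begin with 30, 31, 33 or 34, here called number series, a split that the labels do not explain. CD/CD holds series 30 (4 animals), 31 (1) and 33 (5), and WSD/CD holds series 30 (2), 33 (3) and 34 (5). CD/WSD holds series 30 (3) and 31 (3), and WSD/WSD series 30 (5) and 31 (2). Results are therefore also given within series where animals allow it.

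The genes spanned a wide range of levels. BST2, or tetherin, which holds budding viruses at the cell membrane, had the highest mean over the 33 libraries at 135.3 FPKM. It was followed by the transcription factor STAT2 (33.5), the ubiquitin ligase TRIM25 (19.1), IFIT3 (17.6), the nuclear body protein SP100 (16.4) and the DNA sensor IFI16 (14.8). In all, 9 genes had a mean above 10 FPKM, 28 lay between 1 and 10, and 5 lay below 1. The median of the 42 means was 4.21 FPKM, against 4.77 over all tested genes. All members except IFI27 were above 0 in every library.

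The CD/CD group had the lowest mean for 28 of the 42 genes, and it had the highest for 4. The highest mean lay in CD/WSD for 15 genes, in WSD/WSD for 12 and in WSD/CD for 11. The order of group means was not counted over all tested genes, so these counts have no background. Leaving out any 1 library kept the median fold change of the 41 tested genes positive in all 3 comparisons with CD/CD, at 0.20 to 0.36 for WSD/CD, 0.23 to 0.41 for CD/WSD and 0.28 to 0.40 for WSD/WSD. Over all tested genes the medians in the same order, with no library left out, were -0.15, 0.03 and 0.10. The highest single values were shared out unevenly. WSD/CD replicate 9 had the highest value of all 33 livers for 16 genes, among them ISG15, MX1, MX2, OAS2, OAS3, IFI6 and IFIT1 to IFIT3. CD/WSD replicate 3 was highest for 7 (including EIF2AK2, IFI44 and EPSTI1) and WSD/WSD replicate 5 for another 7 (including OASL, ADAR and DTX3L). CD/CD replicate 9 was lowest for 18 genes and was 1 of several livers listed at 0 for IFI27, yet it had the highest ISG20 of all livers, at 7.40 FPKM.

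**Figure D1:**
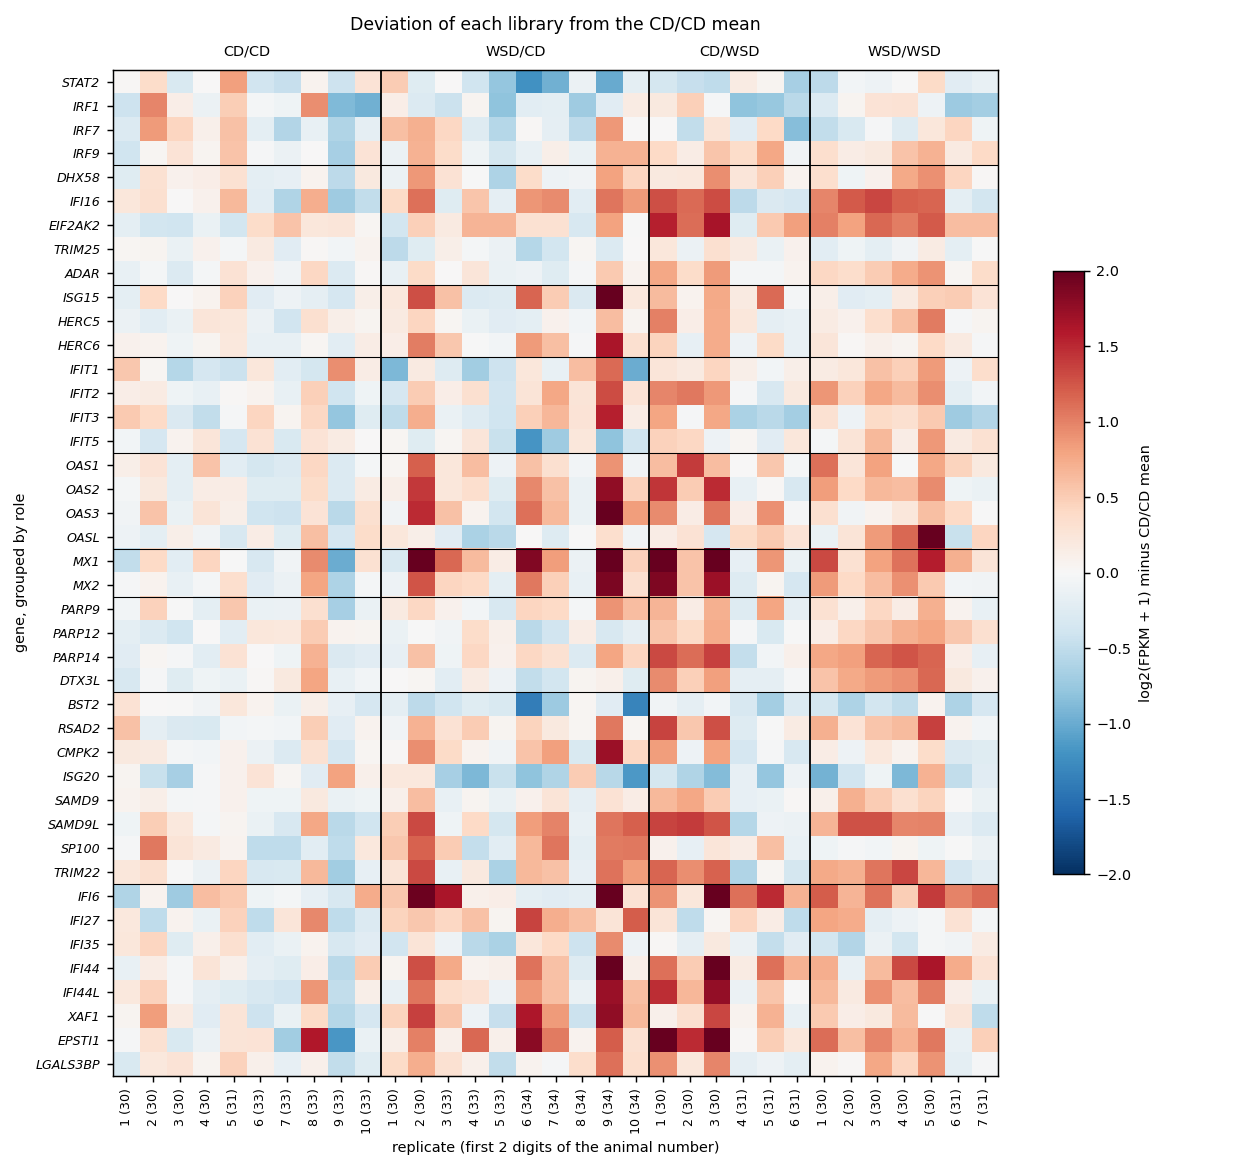
Deviation of each of the 33 libraries (columns, by diet group) from the CD/CD mean for the 42 genes (rows, by role) on the log2(FPKM + 1) scale, with colours ending at 2 in both directions. Red columns stand out at WSD/CD replicates 2 and 9, CD/WSD replicates 1 and 3 and WSD/WSD replicate 5. Series 31 animals of the western-fed groups are paler, with medians over the 41 tested genes between -0.11 and 0.04. They are not pale for every gene, and IFI6 is red in each of them (7.63 to 13.9 FPKM).

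Among the transcription factors of the pathway, STAT2 ranged from 26.7 to 66.1 FPKM in CD/CD (median 37.5) and from 15.5 to 53.1 in WSD/CD (median 29.4). It lay between 23.003 and 41.6 in CD/WSD (median 27.7) and between 25.4 and 48.7 in WSD/WSD (median 34.5). The groups overlapped throughout. IRF9, the DNA-binding partner of STAT2, ran from 4.50 to 11.9 in CD/CD, 5.84 to 13.1 in WSD/CD, 7.34 to 13.9 in CD/WSD and 8.74 to 13.1 in WSD/WSD. All 7 WSD/WSD livers lay above the CD/CD mean of 7.98 FPKM, but 5 of them lay within the CD/CD range. IRF7, which amplifies the response, had means of 2.53 FPKM in CD/CD, 2.82 in WSD/CD, 2.15 for CD/WSD animals and 2.25 for WSD/WSD animals, with wide overlap and medians between 1.99 and 2.40. None of the 4 transcription factors on the list, with IRF1 as the fourth, passed the test in any of the 5 comparisons.

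ISG15 and MX1 are textbook readouts of an interferon response. ISG15 lay between 0.311 and 1.27 FPKM in CD/CD (median 0.603) and between 0.361 and 12.05 in WSD/CD (median 1.13). It lay between 0.617 and 2.62 in CD/WSD (median 1.21) and between 0.421 and 1.35 in WSD/WSD (median 0.880). The value of 12.05 belonged to WSD/CD replicate 9, and the next highest liver, WSD/CD replicate 2, had 3.05. The CD/CD maximum was exceeded in 5 of 10 WSD/CD, 3 of 6 CD/WSD and 2 of 7 WSD/WSD livers. MX1, a GTPase that blocks influenza and other viruses, lay between 1.98 and 10.4 FPKM in CD/CD (median 4.75) and between 3.77 and 43.6 in WSD/CD (median 8.86). In CD/WSD it lay between 4.29 and 29.8 (median 8.81) and in WSD/WSD between 6.03 and 16.4 (median 9.35). Its highest values were those of WSD/CD replicate 9 (43.6), CD/WSD replicates 3 and 1 (29.8 and 26.5) and WSD/CD replicates 2 and 6 (22.5 and 20.4), so 4 WSD/CD, 2 CD/WSD and 3 WSD/WSD livers exceeded every CD/CD liver.

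**Figure D2:**
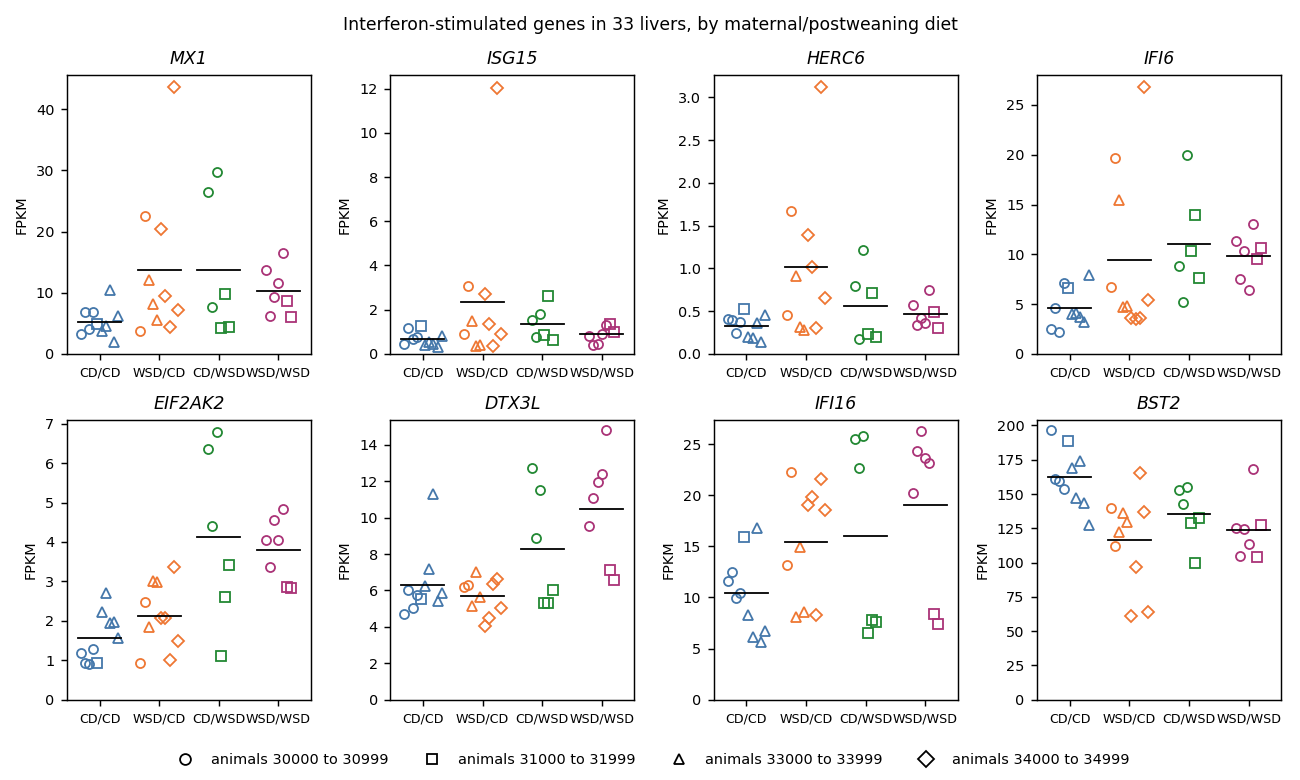
FPKM of 8 genes in each of the 33 livers by diet group, with symbols for the number series and a black line at each group mean. All 7 WSD/WSD values of EIF2AK2 lie above all 10 CD/CD values, IFI16 splits the western-fed groups by number series, and WSD/CD replicate 9 tops the panels of MX1, ISG15, HERC6 and IFI6.

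Maternal WSD followed by the control diet was compared first. In WSD/CD against CD/CD livers, IFI27 and HERC6 rose and BST2 fell, while the other 38 tested genes did not pass. IFI27, a small protein of the mitochondria and nuclear envelope, was listed at 0 in CD/CD replicates 2, 6 and 9 and reached 1.77 FPKM in replicate 8 (median 0.395). In WSD/CD it lay between 0.478 and 2.63 FPKM (median 1.10). WSD/CD livers were above the CD/CD mean in 9 of 10 cases, and above every CD/CD liver in 2. Its log2 fold change was 0.62 (SE 0.186, limma adjusted p = 0.0360).

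Over the 33 fits that left out 1 library each, IFI27 kept its call in 24, HERC6 in 20 and BST2 in 29. HERC6, a HECT-type ubiquitin ligase that acts as the main ISG15 ligase in mouse, lay between 0.139 and 0.522 FPKM in CD/CD (median 0.364). In WSD/CD it lay between 0.279 and 3.12 (median 0.786), and 6 of 10 livers exceeded every CD/CD liver. The log2 fold change was 0.50 (SE 0.157, limma adjusted p = 0.0413). HERC6 reached the mean of 0.5 FPKM needed for testing only through its WSD/CD values. Its tests that involve WSD/CD are therefore not free of that filter. BST2 lay between 127.4 and 196.9 FPKM in CD/CD (median 160.5) and between 61.4 and 165.3 in WSD/CD (median 126.0). The lowest values, 61.4 and 64.0, were those of WSD/CD replicates 6 and 10, and 9 of 10 WSD/CD livers lay below the CD/CD mean. BST2 fell by 0.53 on the log2 scale (SE 0.148, limma adjusted p = 0.0296).

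Of the 41 tested genes, 2 (4.88%) were called higher, beside 1.52% of all tested genes, and 1 was called lower, beside 8.03% (9.55% of all genes in either direction). HERC6, 1 of the 2, had entered the tests only through its WSD/CD values. A positive fold change was seen in 30 of 41, and the median was 0.28, against -0.15 over all tested genes. By role, MX1 and MX2 were both positive (0.54 to 0.96), as were all 3 genes of the ISG15 system (0.08 to 0.61) and most of the group of other induced genes such as XAF1, IFI44 and EPSTI1, where 7 of 8 were positive with a median of 0.60. MX1 itself (0.96, SE 0.351, adjusted p = 0.0703) and OAS3, which makes the 2-5A messenger that activates RNase L (0.62, SE 0.225, adjusted p = 0.0690), did not pass. The 4 genes of ADP-ribosylation had a median of 0.07. Median-of-ratios scaling moved the median of all genes from -0.15 to 0.01 and the calls over all genes to 3.31% higher and 2.50% lower (5.82% in all). IFI27 and HERC6 kept their calls under it, and BST2 stood at -0.31 (adjusted p = 0.0888).

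The calls were lost without series 34, whose 5 animals include the 4 livers of highest mitochondrial share. They also include replicate 8, whose mitochondrial share did not stand apart. Replicates 2 and 3 stayed in. Without these 5 animals limma called 0 of the 41 genes (4 at an unadjusted p under 0.05) and 0 of all genes. That fit held 5 rather than 10 WSD/CD animals, so a change of the same size was harder to detect. IFI27 was then at 0.40, HERC6 at 0.33 and BST2 at -0.33, and the median of the 41 was 0.20. Within series 30 (2 against 4 animals) and within series 33 (3 against 5) 0 members were called as well, with medians of 0.36 and 0.11 and 10 and 2 genes at an unadjusted p under 0.05. The background there was 2.92% and 0.024% of all tested genes. With the mitochondrial share as a covariate the count was also 0 (2 at an unadjusted p under 0.05), as it was over all genes, and HERC6 stood at 0.12. The marker lists moved in the same livers, whose part in the result was not tested: WSD/CD replicates 6, 7, 9 and 10 stood at -1.92 to -1.02 for the 11 hepatocyte markers and at 0.97 to 1.36 for the 10 stellate cell and fibroblast markers. Their medians over the 41 interferon-stimulated genes were 0.41, 0.31, 1.03 and 0.28. WSD/CD replicate 8, of series 34 with a mitochondrial share of 1.98%, stood at -0.11, and at 0.59 for stellate cell and fibroblast markers. Outside series 34, WSD/CD replicates 2 and 3 stood at 0.71 and 0.13 for the 41 genes. These 2 livers stood at -0.81 and -0.53 for hepatocyte markers and at 0.85 and 0.57 for stellate cell and fibroblast markers.

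The second comparison concerned postweaning WSD in offspring of control-fed mothers. In CD/WSD against CD/CD livers 0 of the 41 genes passed with limma, beside 0.016% of all tested genes higher and 0.008% lower (0.024% in all), and 13 had an unadjusted p under 0.05. Of the 41, 33 had a positive fold change, with a median of 0.33 against 0.03 over all tested genes. Median-of-ratios scaling left the count at 0, with 0.088% of all genes higher and 0.08% lower. The smallest p belonged to EIF2AK2, the kinase PKR, which senses double-stranded RNA and halts translation. It lay between 0.899 and 2.70 FPKM in CD/CD (median 1.43) and between 1.11 and 6.79 in CD/WSD (median 3.91). Of the 6 CD/WSD livers 4 exceeded every CD/CD liver, and the log2 fold change was 0.90 (SE 0.216, adjusted p = 0.106). It passed without CD/WSD replicate 4, the lowest of the group, as the only member to do so. Over all 33 fits that left out 1 library each, 0 to 136 of the 12497 tested genes were called.

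IFI44, a cytoplasmic protein of incompletely known role, ran from 1.39 to 3.97 FPKM in CD/CD (median 2.57) and from 2.91 to 13.99 in CD/WSD (median 5.56). All 6 CD/WSD livers lay above the CD/CD mean of 2.55, and 4 lay above the CD/CD maximum. The values of EPSTI1 ran from 0.112 to 6.56 in CD/CD and from 1.53 to 11.001 in CD/WSD, with 9.10, 6.03 and 11.001 in the 3 series 30 animals and 1.53, 2.52 and 1.93 in the 3 of series 31. IFI6, a mitochondrial and endoplasmic reticulum protein that opposes cell death and flavivirus replication, ran from 2.23 to 7.90 in CD/CD and from 5.23 to 20.01 in CD/WSD. Fold changes of IFI44, IFI6, EPSTI1 and IFI44L were 0.95, 1.07, 1.09 and 0.72 on the log2 scale (SE 0.286, 0.333, 0.341 and 0.273), with adjusted p-values of 0.183, 0.195, 0.195 and 0.257.

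Number series divided this group. Within series 30 (3 CD/WSD against 4 CD/CD animals) 17 of 41 genes were called higher with limma (41.5%), beside 29.3% of all tested genes, and 0 lower, beside 9.75% (39.1% in either direction). Among them were EIF2AK2 (1.71, adjusted p = 4.02e-05), EPSTI1 (1.96, adjusted p = 6.96e-05), IFI44L (1.18) and IFI44 (1.19). Values did not overlap, with CD/WSD higher, for 16 of 41 genes (39.0%), beside 35.1% of all tested genes. STAT2 alone lay lower without overlap, beside 14.2% of all tested genes. Within series 31, with 3 CD/WSD animals and only 1 CD/CD animal, 0 members were called (6 at an unadjusted p under 0.05), beside 0.168% of all genes, and the median was -0.16. The lone control there is assumed to vary like the other animals.

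**Figure D3:**
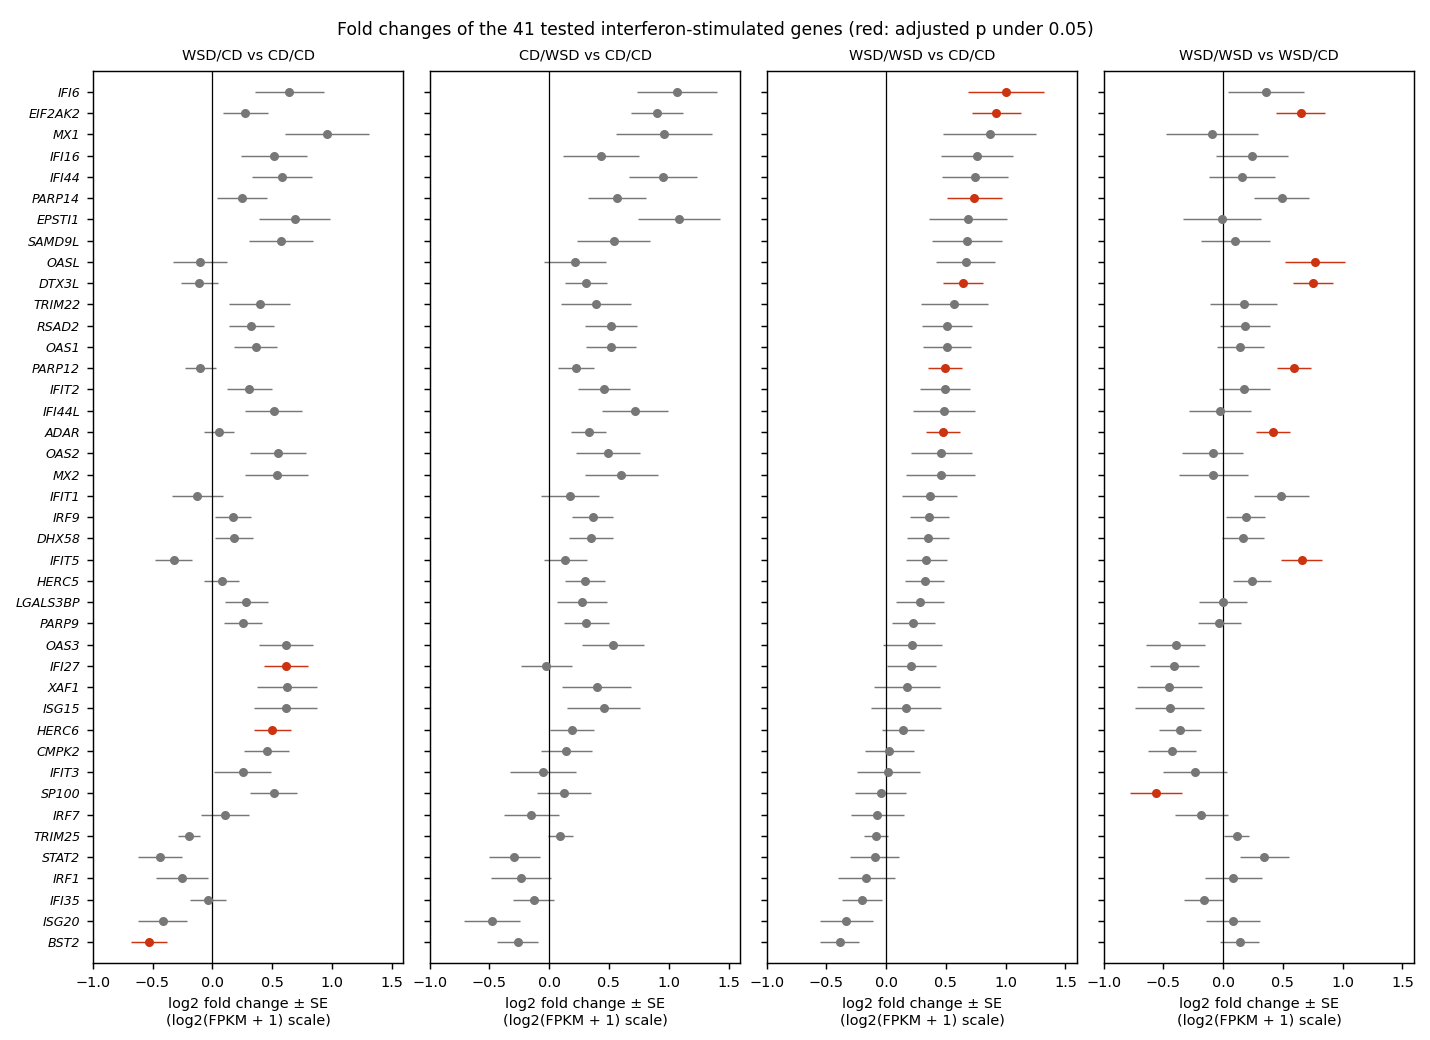
Log2 fold change with its standard error for the 41 tested genes in 4 comparisons, ordered by WSD/WSD against CD/CD, with red for an adjusted p under 0.05. Most points lie above 0 in the 3 comparisons with CD/CD, 3, 0 and 6 genes pass there, and 7 pass in WSD/WSD against WSD/CD.

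The third comparison set animals on WSD in both periods against CD/CD. EIF2AK2, DTX3L, PARP12, PARP14, ADAR and IFI6 rose in WSD/WSD livers, and none of the 41 fell. EIF2AK2 lay between 2.84 and 4.83 FPKM in WSD/WSD (median 4.04), above all 10 CD/CD livers, whose highest had 2.70. Its log2 fold change of 0.92 (SE 0.206, limma adjusted p = 0.00898) kept its call in 33 of 33 fits that left out 1 library each. ADAR, which edits adenosine to inosine in double-stranded RNA and thereby restrains sensing of the cell's own RNA, lay between 7.40 and 12.6 FPKM in CD/CD (median 8.97) and between 9.44 and 17.9 in WSD/WSD (median 12.6). All 7 WSD/WSD livers exceeded the CD/CD mean of 9.31, and 3 exceeded its maximum. It rose by 0.47 (SE 0.142, adjusted p = 0.0259).

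Of the 4 genes of ADP-ribosylation 3 rose, beside 13.2% of all tested genes, and whether this role differs from the others was not tested. DTX3L, a ubiquitin ligase that works as a partner of PARP9, ranged from 4.70 to 11.3 FPKM in CD/CD (median 5.80) and from 6.56 to 14.8 in WSD/WSD (median 11.1), and rose by 0.64 (SE 0.169, adjusted p = 0.0151). Calls were kept in 33 of 33 such fits for DTX3L, 31 for PARP12 and for ADAR, 28 for PARP14 and 27 for IFI6, and that of PARP14 was lost without any 1 of WSD/WSD replicates 1 to 5. PARP14, a mono-ADP-ribosyltransferase, ranged from 2.38 to 5.70 in CD/CD (median 2.96) and from 2.68 to 8.89 in WSD/WSD (median 6.30), and rose by 0.74 (SE 0.232, adjusted p = 0.0312). The 5 series 30 animals of WSD/WSD lay between 6.04 and 8.89, above all CD/CD livers, and the 2 of series 31 had 3.49 and 2.68, within the CD/CD range. PARP12, a related transferase that inhibits translation, ranged from 1.24 to 3.18 in CD/CD (median 2.02) and from 2.22 to 4.07 in WSD/WSD (median 3.26), and rose by 0.49 (SE 0.143, adjusted p = 0.0224). IFI6 lay between 6.44 and 13.04 FPKM in WSD/WSD (median 10.3) against a CD/CD median of 4.06, with 5 of 7 livers above the CD/CD maximum, and rose by 1.0 (SE 0.318, adjusted p = 0.0327).

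The 6 genes called higher were 14.6% of the 41, beside 13.2% of all tested genes, and 0 were called lower, beside 3.42%. The median of the 41 was 0.36, against 0.10 over all tested genes, and 33 were positive. The ISG15 system had a median of 0.16 and the OAS family (4 genes, OASL among them) 0.48, with 0 calls in either. With median-of-ratios scaling, DTX3L, EIF2AK2 and PARP12 kept their calls, BST2 was called lower, and ADAR, IFI6 and PARP14 did not pass (adjusted p from 0.0554 to 0.0614). The scaling moved the median of all genes from 0.10 to -0.01, and 10.5% of all genes were then called higher and 7.98% lower. Without WSD/WSD replicate 5, which had the highest value of all livers for 7 of the genes, the count was 2, DTX3L and EIF2AK2, and without WSD/WSD replicate 4 it was 3. Without CD/CD replicate 8 or WSD/WSD replicate 7 it was 10 in each case.

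Within series 30 (5 WSD/WSD against 4 CD/CD animals) 13 genes were called higher (31.7%), beside 33.3% of all tested genes, and BST2 was called lower, beside 11.4%. EIF2AK2 stood at 1.32 there, DTX3L at 1.01, PARP14 at 1.14, IFI6 at 1.14, PARP12 at 0.73 and ADAR at 0.70. Values did not overlap, with WSD/WSD higher, for 12 of 41 genes (29.3%), beside 27.3% of all tested genes. Within series 31 (2 against 1) 0 members were called (5 at an unadjusted p under 0.05), beside 0.136% of all genes, the median was -0.15, and PARP14 and ADAR stood at -0.31 and -0.09. EIF2AK2 and PARP12 stood at 0.99 and 0.65 in that small set.

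EIF2AK2 and PARP12 also differed between the CD/CD animals themselves. EIF2AK2 had 1.18, 0.935, 0.899 and 1.28 FPKM in the 4 series 30 animals, and 2.22, 2.70, 1.93, 1.96 and 1.57 in the 5 of series 33. PARP12 had 1.58, 1.43, 1.24 and 1.98 in series 30, and 2.45, 2.41, 3.18, 2.09 and 2.06 in series 33. No other member separated the 2 CD/CD series in this way (2 of 41 lower in series 30, 4.88%, beside 8.51% of all tested genes, and 0 higher, beside 2.82%).

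The fourth comparison set WSD/WSD against CD/WSD, that is maternal WSD among western-fed animals. With limma 0 of the 41 genes passed, 0 had an unadjusted p under 0.05, and 0% of all tested genes were called (307 at an unadjusted p under 0.05). The median of the 41 was -0.002 and 20 were positive. DTX3L, with the smallest p, stood at 0.34 (SE 0.191, adjusted p = 0.962). OASL, an OAS-like protein that boosts RNA sensing, stood at 0.45 (SE 0.280, adjusted p = 0.962). Its values ran from 1.12 to 2.83 FPKM in CD/WSD and from 0.971 to 14.5 in WSD/WSD, where 14.5 was WSD/WSD replicate 5 and the next highest liver had 4.94.

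The fifth comparison set WSD/WSD against WSD/CD, postweaning WSD in offspring of western-fed mothers. DTX3L, PARP12, IFIT5, EIF2AK2, OASL and ADAR rose and SP100 fell. DTX3L lay between 4.05 and 7.03 FPKM in WSD/CD (median 5.91) and rose by 0.75 (SE 0.169, limma adjusted p = 0.00166), and 6 of 7 WSD/WSD livers lay above the WSD/CD maximum, the other being at 6.56. PARP12 lay between 1.04 and 2.79 in WSD/CD (median 1.76) and rose by 0.59 (SE 0.143, adjusted p = 0.00233). EIF2AK2 lay between 0.942 and 3.37 in WSD/CD (median 2.08) and rose by 0.65 (SE 0.206, adjusted p = 0.0125).

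IFIT5, of the family that binds viral RNA ends, lay between 2.44 and 8.23 FPKM in WSD/CD (median 5.21) and between 6.55 and 13.1 in WSD/WSD (median 8.26), a rise of 0.66 (SE 0.171, adjusted p = 0.00357). Its lowest values were 2.44, 3.46 and 3.73 in WSD/CD replicates 6, 9 and 7. OASL lay between 0.731 and 2.39 in WSD/CD (median 1.596) and between 0.971 and 14.5 in WSD/WSD (median 2.62), and rose by 0.77 (SE 0.248, adjusted p = 0.0135). ADAR rose by 0.42 (SE 0.142, adjusted p = 0.0187). SP100, a nuclear body protein that silences viral genomes, lay between 9.47 and 32.03 in WSD/CD (median 20.95) and between 12.4 and 14.2 in WSD/WSD (median 12.97), and fell by 0.56 (SE 0.216, adjusted p = 0.0350). SP100 kept its call in 24 of 33 fits that left out 1 library each. The spread of SP100 in WSD/WSD was narrow, with 13.1 FPKM ± 0.608 (SD, n = 7) against 21.4 ± 8.38 (n = 10) in WSD/CD.

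In this comparison the background was high. The 6 genes called higher were 14.6% of the 41, beside 37.9% of all tested genes, and 1 was called lower, beside 6.14% (44% of all genes in either direction). The median of the 41 was 0.11, against 0.26 over all tested genes. Median-of-ratios scaling moved the median of all genes from 0.26 to -0.02 and the split of all calls to 18.1% higher and 17.9% lower (36% in all). DTX3L, IFIT5 and PARP12 were then called higher, SP100, HERC6, IFI27, CMPK2 and TRIM25 lower, and 10 rather than 24 of the 41 genes were positive. Without the animals of series 34 only IFIT1 was called (higher), beside 3.07% of all tested genes higher and 3.46% in either direction, and DTX3L stood at 0.67 (adjusted p = 0.0575). Without WSD/WSD replicate 5 the count was 4, and OASL, ADAR and SP100 were lost. Over all 33 fits that left out 1 library each, 4530 to 6083 of the 12497 tested genes were called.

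The interaction asked whether maternal WSD acted differently under the 2 postweaning diets. With limma 0 of the 41 genes passed (8 at an unadjusted p under 0.05), beside 0% of all tested genes. Of the 41, 30 were negative with a median of -0.26, while the median over all tested genes was 0.24. The smallest p-values belonged to OAS3 (-0.93, SE 0.360), EPSTI1 (-1.095, SE 0.472), HERC6 (-0.56, SE 0.251), SP100 (-0.69, SE 0.313) and STAT2 (0.64, SE 0.295), with adjusted p-values between 0.209 and 0.238.

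The clearest division among the western-fed livers followed number series rather than a label of the study. In 13 of 41 genes (31.7%) every one of the 8 series 30 animals exceeded every one of the 5 series 31 animals, beside 13.6% of all tested genes, and in 0 was the order the other way, beside 0.584%. The 13 were DTX3L, EPSTI1, IFI16, IFIT2, IFIT3, IRF1, LGALS3BP, MX2, OAS2, PARP14, RSAD2, SAMD9L and TRIM22. Values of the 2 series overlapped in all other tested genes of the list, with ISG15, MX1 and IFI6 among them. IFI16 had 25.5, 22.7 and 25.8 FPKM in CD/WSD replicates 1 to 3 and 20.2, 24.4, 26.3, 23.6 and 23.1 in WSD/WSD replicates 1 to 5. The series 31 animals had 6.51, 7.81 and 7.58 in CD/WSD and 8.42 and 7.38 in WSD/WSD. SAMD9L, which curbs translation and cell growth, lay between 4.77 and 8.49 in the former and between 1.42 and 2.37 in the latter.

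Markers of other liver cells split between the same animals, and their part in the result was not tested. In the western-fed series 30 animals the median over 11 Kupffer cell markers stood 0.64 to 1.07 above the CD/CD mean, and the median over 10 endothelial markers 0.53 to 1.0 above it. In the series 31 animals the same medians lay between -1.33 and -0.57 and between -0.51 and -0.36. The median over the 41 interferon-stimulated genes lay between 0.18 and 0.80 in the former and between -0.11 and 0.04 in the latter. The 1 series 31 animal of CD/CD stood at 0.76 for Kupffer cell, 0.55 for endothelial and 0.20 for interferon-stimulated genes. Tested by diet over both series, WSD/WSD against CD/CD had 0 of 11 Kupffer cell markers called higher and 2 called lower. These 2 were VSIG4 (-1.37) and CD14 (-0.65), while the other 9 were positive and the list median was 0.29. Of 10 endothelial markers 3 were called higher (CDH5, PECAM1 and TEK) and 0 lower, with 6 positive and 4 negative. Over all tested genes 13.2% were called higher and 3.42% lower. Summed Kupffer cell markers ran from 411.7 to 930.3 FPKM in CD/CD, 274.7 to 766.1 in WSD/CD, 186.1 to 961.2 in CD/WSD and 276.8 to 831.6 in WSD/WSD. Summed endothelial markers ran from 30.6 to 93.9, 31.98 to 95.0, 29.3 to 117.4 and 31.9 to 115.8 in the same order. CLEC4C, the defining marker of plasmacytoid dendritic cells, which make much interferon, was listed at 0 in all CD/CD livers and reached 0.265 at most. Of the 2 tested genes of that list TCF4, a transcription factor also made by other cells, rose in WSD/CD (0.55, adjusted p = 0.0311) and WSD/WSD (0.66, adjusted p = 0.0144) against CD/CD.

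**Figure D4:**
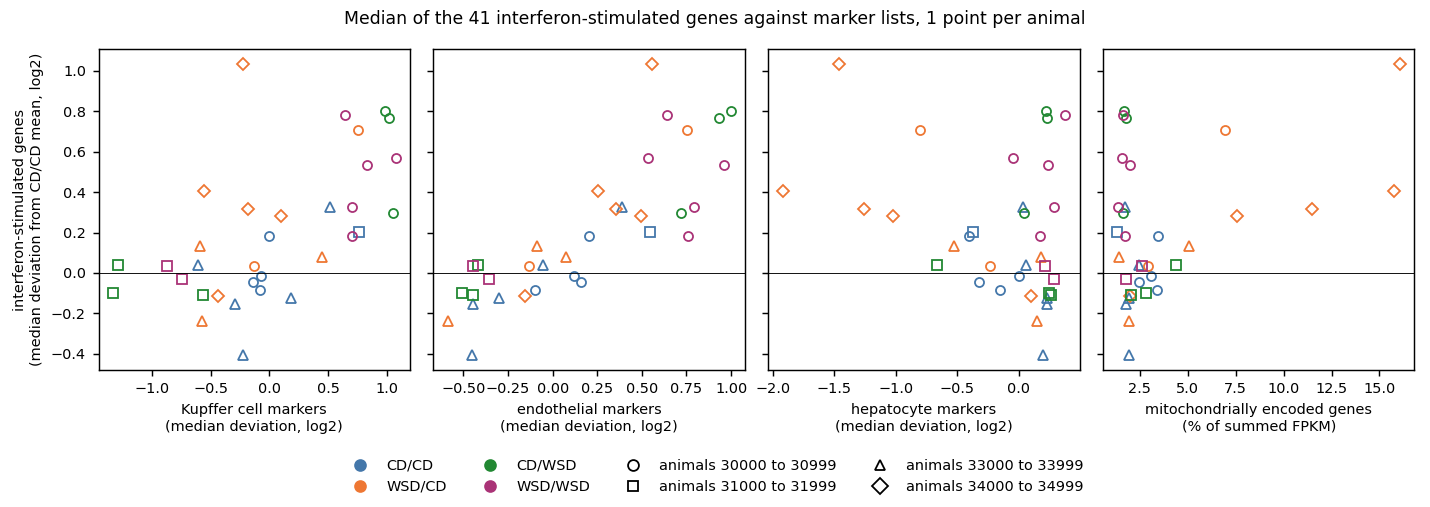
Median deviation of the 41 interferon-stimulated genes from the CD/CD mean (vertical axis, log2) in each of the 33 livers against the same median of Kupffer cell, endothelial and hepatocyte markers and against the mitochondrial share of summed FPKM. Western-fed series 30 animals lie at 0.64 or more for Kupffer cell markers, and WSD/CD replicate 9 lies highest at 1.03 with a mitochondrial share of 16.08%.

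Several members are neighbours in the genome. In RefSeq gene order 12 pairs lay side by side or with 1 protein-coding gene between them, such as HERC6 and HERC5, RSAD2 and CMPK2, DTX3L and PARP9, and the IFIT, OAS and MX clusters. Neighbours did not always peak in the same liver. RSAD2, or viperin, had its highest value of 4.32 FPKM in WSD/WSD replicate 5, while CMPK2, a nucleotide kinase next to it, had 4.05 in WSD/CD replicate 9. HERC5, the main ISG15 ligase in humans, reached 3.29 in WSD/WSD replicate 5, and HERC6 reached 3.12 in WSD/CD replicate 9. Members with close copies (IFIT, OAS, MX, IFI44 and IFI44L, SAMD9 and SAMD9L) could share reads, so their separate values are uncertain.

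Other genes of the pathway were read from lists chosen for it. Of 13 interferon ligand genes 8 had a row, 7 of them (IFNB1, IFNA8, IFNA13, IFNK, IFNL1, IFNL3 and IFNW1) were listed at 0 in every library, and IFNG reached 0.0746 FPKM at most. None was high enough to test. Of 5 receptor genes, IFNLR1, the receptor chain of type III interferon, fell by 0.66 in WSD/CD against CD/CD (SE 0.173, adjusted p = 0.0233), from a median of 4.62 to 2.20 FPKM. In WSD/WSD against CD/CD 1 of the 5 was called higher, beside 13.2% of all tested genes. It was IFNAR2, a chain of the type I receptor and the highest of the 5 with a mean of 23.4 FPKM. IFNAR2 rose by 0.81 in that comparison (SE 0.244, limma adjusted p = 0.0268). Its values there were 25.9 to 42.0 FPKM in WSD/WSD against 13.3 to 25.8 in CD/CD, with no overlap. Against WSD/CD, where 37.9% of all tested genes were called higher and 6.14% lower, 3 of 5 rose (IFNAR2 by 1.20, IFNAR1 by 0.83 and IFNGR1 by 0.87).

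No gene of these lists passed in CD/WSD against CD/CD or in WSD/WSD against CD/WSD with limma. Of 13 tested genes for JAK-STAT and IRF signalling, 1 fell in WSD/CD against CD/CD (IRF3, by 0.41), beside 8.03% of all tested genes. None of the 13 rose, beside 1.52%. The inhibitor PIAS1 and the kinase JAK2 rose in WSD/WSD against CD/CD, by 0.38 each, beside 13.2% of all tested genes called higher. Against WSD/CD 5 of the 13 rose, beside 37.9% of all tested genes, among them STAT3, JAK1, IRF2 and PIAS1. STAT3, the highest of the list with a mean of 38.0 FPKM, rose by 1.20 there. Of 12 tested sensors and adapters 1 was called lower in WSD/CD against CD/CD, beside 8.03% of all tested genes. It was MAVS, the mitochondrial adapter of RNA sensing, which fell by 0.42 (limma adjusted p = 0.0435). In WSD/WSD against CD/CD 2 of the 12 rose, beside 13.2% of all tested genes. These were DDX58, which encodes the RNA sensor RIG-I (0.54), and TLR8 (0.74). Against WSD/CD 6 of the 12 rose, beside 37.9% of all tested genes, namely DDX58, TRAF6, TLR3, MYD88, TLR8 and MAVS, and STING1 fell by 0.53, beside 6.14% called lower. MYD88 had the highest mean of this list, 9.03 FPKM.

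A further list held 26 other tested interferon-induced genes. None passed in the comparisons of WSD/CD or CD/WSD with CD/CD (3 and 9 at an unadjusted p under 0.05, limma). In WSD/WSD against CD/CD 5 of 26 rose, beside 13.2% of all tested genes, and 0 fell, beside 3.42%. They were the antiviral RNA-binding protein ZC3HAV1 (1.11), TRIM14 (0.89), the nucleotide-cleaving SAMHD1 (0.88), the capsid-binding TRIM5 (0.85) and the helicase DDX60 (0.69), with adjusted p-values from 0.0132 to 0.0283. DDX60 had a median of 0.469 FPKM in CD/CD and 1.21 in WSD/WSD. Against WSD/CD 9 of 26 rose, no larger a share than the 37.9% over all tested genes, namely ZC3HAV1 (1.38), TNFSF10 (1.06), CHMP5 (0.65), TRIM5 (0.64), TRIM14 (0.60), CMTR1 (0.49), TRIM34 (0.48), DDX60L (0.45) and PNPT1 (0.39). The highest mean of this list was that of IFI30, a lysosomal reductase, at 29.3 FPKM. Among the 10 tested genes of the interferon gamma and guanylate-binding list, of which WARS1 had the highest mean at 32.4 FPKM, 0 passed with limma in any of the 5 comparisons (1, 0, 0, 0 and 0 at an unadjusted p under 0.05, in the order above).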

How the data were processed

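Liver RNA of 33 animals was measured. Per the labels' protocols, RNA was extracted with a Qiagen RNeasy Mini kit and Swift directional mRNA libraries were read on a NovaSeq instrument. GSNAP, SAMtools and Cufflinks appear in the submitters' processing notes. Their settings and the build were not stated in the labels. FPKM for 34882 genes are the authors' deposited values. All value columns matched an animal number (0 were left out). The code 999999999 was treated as missing (15 genes).

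The log2 of FPKM + 1 was tested in limma 3.58.1 (trend) under R 4.3.3, over 12497 genes whose mean reached 0.5 FPKM. The 4 group means were fitted over all 33 libraries, with Benjamini-Hochberg adjustment over all tested genes and a threshold of 0.05. Fold changes on this scale understate changes of low genes. FPKM carry no depth, so no counting interval is given. The p-values take the animals as independent. The fit was tested on simulated data.

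The members, the lists and the number series were chosen with earlier results of these data known. Members named with values are those called in a pairwise comparison, the 5 smallest p-values per comparison, the 6 highest means, the 6 widest spreads, and ISG15, MX1, STAT2, IRF9 and IRF7. Of the signalling list, 1 result is not reported here. RSAD2, CMPK2, HERC5 and ISG20 were named after their values were seen. The comparisons with CD/CD share their controls, as do those with WSD/WSD. Alternatives were a pseudocount of 0.1, no filter, median-of-ratios scaling, only the groups compared, number series as a factor or alone, no animals numbered above 34000 (series 34), the share of 13 mitochondrial genes as a covariate, sample weights, and leaving out each library. Series 31 alone was added after the data were seen. Figures were drawn with matplotlib 3.10.9.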

Additional observations from a re-analysis of the deposited data

Results flagged for a closer look

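Of 100 sets of values (the 25 named genes in each of the 4 groups), 5 held a liver set far apart from the others of its group, and about 1 in 20 such sets is expected to do so by chance. ISG15 stood at 12.05 FPKM in WSD/CD replicate 9, against 0.361 to 3.05 in the other WSD/CD livers. DTX3L stood at 11.3 FPKM in CD/CD replicate 8, against 4.70 to 7.17 in the others. EPSTI1 stood at 6.56 FPKM in the same CD/CD replicate 8, against 0.112 to 2.09. SP100 stood at 29.2 FPKM in CD/CD replicate 2, against 9.19 to 16.5. BST2 stood at 168.1 FPKM in WSD/WSD replicate 5, against 104.4 to 127.4. No named gene passed the interaction test, and none moved in opposite directions in every animal of 2 groups.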

How the results depend on the processing

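No paired analysis was possible because replicate numbers follow accession order and pair no animals. The counts of called genes were 3, 0, 6, 0 and 7 of 41 in the 5 comparisons in the order of the report, and 0 for the interaction. For WSD/CD against CD/CD the count was 0 with number series as a factor, within series 30 or 33, without animals above 34000, with the mitochondrial covariate and with only the groups compared, 1 without the filter (2.83% of all genes) and 6 with sample weights (14.5%). For CD/WSD against CD/CD it was 13 with series as a factor (34.2% of all genes), 17 within series 30 (39.1%) and 27 with sample weights (42.4%). For WSD/WSD against CD/CD it was 11 with series as a factor (44.2%), 14 within series 30 (44.7%), 0 within series 31, 11 with the mitochondrial covariate (24.9%), and 15 with sample weights (39.3%) or with only the groups compared (27.3%). For WSD/WSD against WSD/CD it was 11 with series as a factor (40.9%), 1 without animals above 34000 (3.46%) and 0 with the mitochondrial covariate (0.096%, 9 members at an unadjusted p under 0.05, limma). Leaving out 1 library gave 0 to 8, 0 to 1, 2 to 10, 0 to 0 and 4 to 10 in the order above, and 0 to 0 for the interaction. Among all 12497 tested genes the same fits called 201 to 2329, 0 to 136, 836 to 2708, 0 to 2 and 4530 to 6083. For the interaction they called 0 to 0. For WSD/CD against CD/CD the 0 came without CD/CD replicate 6 or WSD/CD replicate 6, 7 or 10, and the 8 without WSD/CD replicate 8. It was 1 without CD/CD replicate 4, 9 or 10 or WSD/CD replicate 9, 6 without WSD/CD replicate 1 or 4, and 7 without WSD/CD replicate 5. The sign turned for PARP12 in WSD/WSD against CD/WSD within series 30 (-0.046). Within series 31 it turned for EPSTI1 in CD/WSD against CD/CD (-0.0073), ADAR (-0.091) and PARP14 (-0.31) in WSD/WSD against CD/CD, and OASL in WSD/WSD against CD/WSD (-0.39). The causes were not tested. The other settings run kept the counts within 1.5 times.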
